A study of Mus musculus with 12 samples.

Results

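The 10 genes described here encode the core proteins of elastic fibre assembly: elastin (Eln), fibrillin-1 (Fbn1), the fibulins Fbln1, Fbln2, Fbln5 and Efemp2 (fibulin-4), the cross-linking enzymes Lox and Loxl1, and the fibre-associated glycoproteins Emilin1 and Mfap4. They were chosen by symbol as known parts of the fibre, with earlier results of these data known. All 10 were among the 27933 genes of the count table, and all 10 were among the 14621 genes with enough counts to be tested. Aortas were of the thoracic part, from C57BL/6J mice aged 8 months, and their RNA was sequenced. Libraries came from 4 groups of 3: WT nicotine (library numbers 6, 11 and 12) and WT air (8, 9 and 10) from wild-type mice, and KO nicotine (3, 4 and 5) and KO air (1, 2 and 7) from mice labelled as knockouts of the alpha7 nicotinic acetylcholine receptor. From 5 months of age, the nicotine groups breathed nicotine vapor and the air groups room air, for 12 weeks. The labels do not say what the library numbers stand for, and since KO holds 1 to 5 and 7 and WT holds 6 and 8 to 12, an effect of the numbering and one of genotype cannot be told apart.

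Elastic fibres let the aorta stretch with each heartbeat and recoil. Smooth muscle cells secrete elastin as a soluble precursor, fibulin-4 and fibulin-5 help to bring it and lysyl oxidase together on a scaffold of fibrillin microfibrils, and lysyl oxidases link its lysines into an insoluble polymer. In the mouse aorta most of this fibre is laid down around birth and in early life, and it then turns over very slowly. The mRNA in an adult therefore does not report on the amount of fibre in the wall, and the counts carry no measure of protein.

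Total counts ran from 10240031 to 12628323 per library, and mitochondrial genes took up to 7.52% of them. The smooth muscle genes Acta2 and Myh11 reached 6891 to 13829 and 10272 to 21757 CPM (counts relative to the library total, scaled between libraries), and 12 of 12 contractile markers were counted in every library. Adipocyte genes were present too, in tissue that the labels describe as cleared of fat: the 12 markers listed summed to 1992 to 10424 CPM, and none was at 0 in any library. Chrna7, which encodes the receptor, had 8 to 25 raw counts in KO nicotine, 9 to 26 in WT nicotine, 18 to 28 in KO air and 22 to 37 in WT air. Its log2 fold change for KO against WT was 0.07 ± 0.47 (SE) in nicotine and -0.36 ± 0.45 in air, and edgeR called neither. Which part of the gene was deleted is not stated, so these counts do not check the genotype.

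Set on a common scale of CPM per kilobase of exon, elastin stood highest of the 10 genes in the adult aorta. The lengths join the annotated exons of a gene, such as 6065 bases for Fbln5 and 3007 for Efemp2. The transcripts present may be shorter, so the order also depends on the lengths used. Fibulin-4 had the lowest mean, which was not resolved from that of Lox. Over all 12 libraries Eln averaged 216 ± 61.6 CPM per kilobase (SD). Mfap4 followed at 136 ± 24.2 and Loxl1 at 108 ± 18.3, and each of these 3 genes lay above the next in all 12 libraries. Fbln5 stood at 64.9 ± 11.5, above Fbn1 (52.7 ± 14.4) in 11 libraries, and Fbn1 was above Fbln2 (46.8 ± 9.88) in 8. Fbln2 lay above Fbln1 (40.0 ± 9.43) in all 12, while Fbln1 and Emilin1 (38.5 ± 8.46) changed places, with Fbln1 higher in 6. Emilin1 was above Lox (30.4 ± 9.31) in 9 libraries, and Lox above Efemp2 (26.2 ± 3.26) in 7. The order within the lower part, from Fbn1 downward except for the step between Fbln2 and Fbln1, therefore was not resolved against the spread between libraries. Together the 10 genes took 0.217 to 0.411% of a library's counts.

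**Figure D1:**
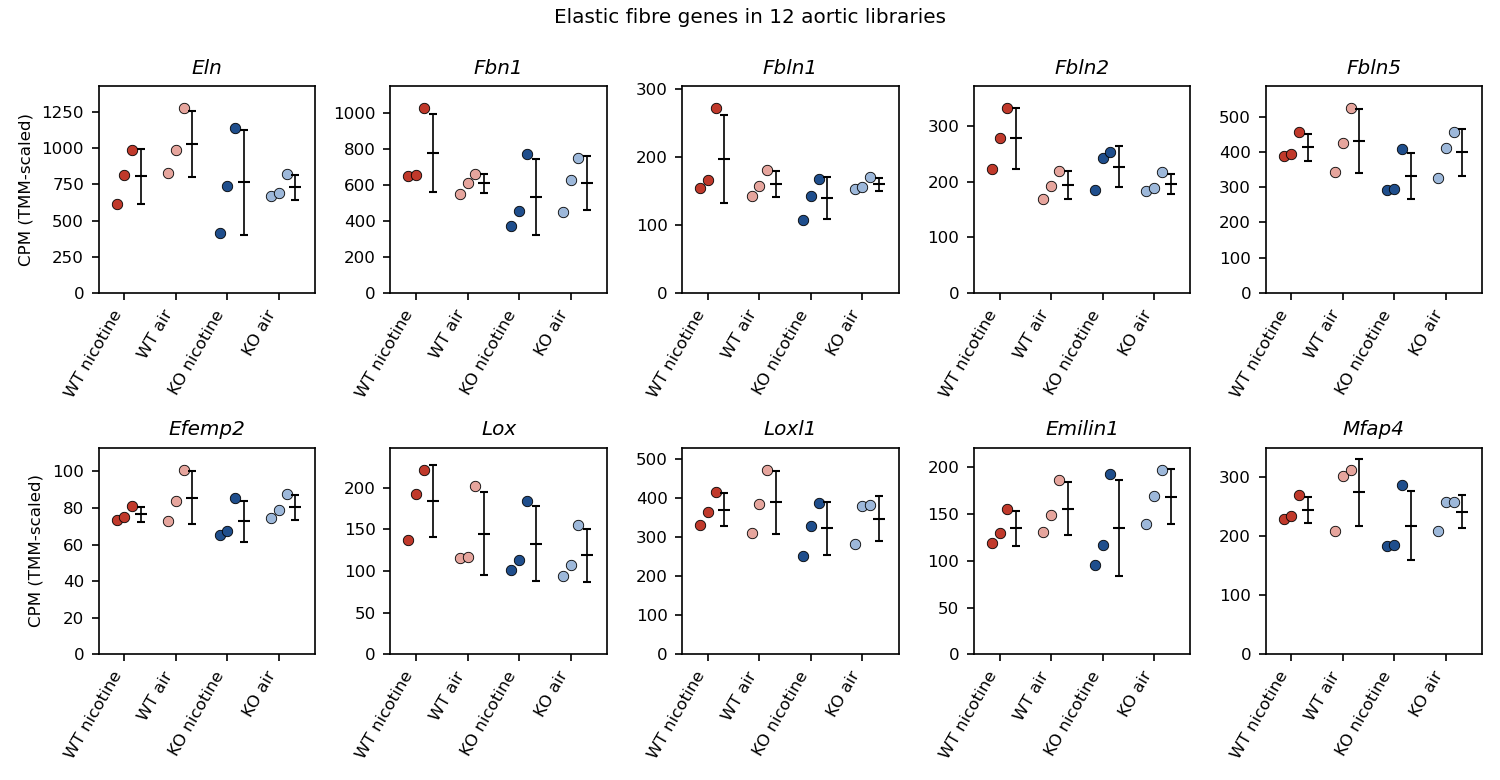
Normalised counts (CPM, y axis) of the 10 elastic fibre genes, 1 panel a gene, in WT nicotine, WT air, KO nicotine and KO air from left to right. Each point is 1 library and each horizontal tick the group mean. Error bars are SD. Nicotine and air libraries overlap in both genotypes for every gene but Fbln2, with 223 to 333 CPM in WT nicotine and 169 to 220.4 CPM in WT air.

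The first question is whether nicotine vapor changed the mRNA of elastin and of the microfibril proteins it is laid on. Eln had 989, 814 and 614 CPM in WT nicotine, against 987, 1278 and 827 CPM in WT air, and 741, 415 and 1141 CPM in KO nicotine, against 825, 669.8 and 694 CPM in KO air. The nicotine and air libraries overlapped in both genotypes, and KO nicotine held both the lowest and the second highest of the 12 values. The log2 fold change of Eln with nicotine was -0.36 ± 0.31 (SE) in WT, with a 95% interval of -1.02 to 0.31, and 0.07 ± 0.31 in KO, with -0.60 to 0.74. Neither passed the edgeR threshold of an adjusted p of 0.05 (adjusted p = 0.737 and 0.975). Both intervals span decreases and increases. Single libraries set both values. In WT the value was -0.17 without WT air 9 and -0.18 without WT nicotine 12. In KO it was -0.33 without KO nicotine 5 and 0.37 without KO nicotine 4.

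Fbn1 encodes the backbone of the microfibril. It had 1028, 648 and 658 CPM in WT nicotine, against 661, 613 and 553 CPM in WT air, and 374, 453 and 771 CPM in KO nicotine, against 750.1, 451 and 629.5 CPM in KO air. One WT nicotine library (6) stood above the rest, and groups overlapped. The log2 fold change with nicotine was 0.35 ± 0.27 in WT and -0.20 ± 0.27 in KO. Without WT nicotine 6 the WT value was 0.12, and the KO value ran from -0.56 without KO nicotine 5 to 0.01 without KO nicotine 3. Mfap4, a glycoprotein that binds elastin and fibrillin-1, lay between 183 and 312 CPM in all libraries, with a log2 fold change of -0.17 ± 0.19 in WT nicotine against WT air and -0.15 ± 0.19 in KO nicotine against KO air. Emilin1, found where elastin meets the microfibril, lay between 95.4 and 197 CPM, with -0.21 ± 0.24 in WT and -0.32 ± 0.24 in KO. None of these 3 passed the threshold in either genotype.

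The fibulins are calcium-binding glycoproteins that join elastin, microfibrils and cross-linking enzymes. They are shown by the bases before their transcription starts because, as given further on, Fbln1 and Fbln2 had relations past the threshold with fibroblast markers and Fbln5 and Efemp2 with contractile markers. Each stretch is 120 bases that end just before the outermost start of the gene in RefSeq's GRCm38.p6 table, written 5′ to 3′ on the gene's strand, and capitals mark a GC box (GGGCGG, read on both strands). The stretches are chr15:85205829-85205948 on the plus strand for Fbln1, chr6:91212644-91212763 on the plus strand for Fbln2, chr12:101819120-101819239 on the minus strand for Fbln5 and chr19:5473826-5473945 on the plus strand for Efemp2.
Fbln1: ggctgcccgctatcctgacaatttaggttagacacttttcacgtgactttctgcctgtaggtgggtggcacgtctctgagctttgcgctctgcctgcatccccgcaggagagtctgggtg
Fbln2: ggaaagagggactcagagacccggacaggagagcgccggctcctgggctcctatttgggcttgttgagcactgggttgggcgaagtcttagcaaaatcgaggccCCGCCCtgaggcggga
Fbln5: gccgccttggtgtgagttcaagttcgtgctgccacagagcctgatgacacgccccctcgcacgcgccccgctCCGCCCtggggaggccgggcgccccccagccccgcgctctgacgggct
Efemp2: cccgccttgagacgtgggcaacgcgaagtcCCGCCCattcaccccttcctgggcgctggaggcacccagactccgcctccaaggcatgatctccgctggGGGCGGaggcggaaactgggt

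The RefSeq table held windows for 6 of the 10 genes. In the 250 bases before the start, a GC box was found in Fbn1, Fbln2, Fbln5 and Efemp2 and in 32.7% of all 32851 windows. The letters CAGACA, part of what SMAD proteins bind, were found in Fbln1 and Emilin1 and in 17.1% of all windows. No match was found in the 6 windows for TGANTCA (AP-1 factors, 6.75% of all windows), GTCTAGAC (SMAD proteins, 0.167%), TATAAA (12.4%) or the CArG box of serum response factor (1.47%); both strands were read for each. These are matches of letters only, and the counts carry no measure of binding.

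Fbln2 was the member with the clearest nicotine value, and it did not pass the threshold. Fbln2, which binds fibrillin-1 and elastin, had 333, 279 and 223 CPM in WT nicotine, against 169, 220.4 and 193 CPM in WT air, so that every nicotine library lay above every air library, as in 7.13% of all genes tested. The fold was 1.43 (log2 0.52 ± 0.17, 95% interval 0.16 to 0.88), with an unadjusted p of 0.00768 and an edgeR adjusted p of 0.345. In KO nicotine Fbln2 had 253, 186 and 243 CPM, against 217, 189 and 183 CPM in KO air, with overlap (log2 0.21 ± 0.17). The nicotine log2 fold change averaged over genotypes was 0.37 ± 0.12 (unadjusted p = 0.00798, edgeR adjusted p = 0.337), where 10.9% of all genes had an unadjusted p under 0.05 and 0 passed the threshold. The nicotine value in KO minus that in WT was -0.31 ± 0.23, and edgeR did not call it. Fibroblast markers moved with Fbln2: 12 of 12 were above 0 in WT nicotine against WT air, with a median log2 fold change of 0.28, and their summed level was 8732 to 10451 CPM in WT nicotine and 6985 to 8811 CPM in WT air. Macrophage markers did so as well, with 10 of 10 above 0 and sums of 444 to 627 CPM in WT nicotine and 269 to 305 CPM in WT air. Endothelial markers were above 0 for 7 of 8 (median 0.32) and mesothelial markers for 7 of 7 (median 0.84), while contractile markers were below 0 for 11 of 12. No fibroblast or macrophage marker was at 0 in any library, and the part of any of these cells in the Fbln2 value was not tested. In whole tissue, fewer cells of a type and less RNA per cell cannot be told apart.

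The other fibulins showed smaller or less even values. Fbln1, a fibulin of elastic fibres and basement membranes, had 272, 154 and 166 CPM in WT nicotine, against 142, 179.9 and 157 CPM in WT air. One nicotine library set that mean: the log2 fold change was 0.30 ± 0.21, and 0.02 without WT nicotine 6. In KO nicotine Fbln1 had 168, 107 and 142 CPM, against 171, 156 and 152 CPM in KO air (log2 -0.20 ± 0.21). Fbln5, which in mice is needed for normal elastic fibres, lay between 292 and 524 CPM, with -0.06 ± 0.18 in WT and -0.26 ± 0.18 in KO. Efemp2, without which mice form no functional elastic fibres, was the steadiest member, at 73.6, 75.0 and 81.1 CPM in WT nicotine, 72.7, 101 and 83.6 CPM in WT air, 67.6, 65.1 and 85.6 CPM in KO nicotine and 87.7, 74.7 and 78.8 CPM in KO air. Its log2 fold changes were -0.16 ± 0.14 in WT and -0.14 ± 0.14 in KO, with 95% intervals of -0.46 to 0.14 and -0.44 to 0.16.

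The cross-linking enzymes gave no call. Lox, the lysyl oxidase most needed for the aortic wall in mice, had 222, 137 and 193 CPM in WT nicotine, against 202, 116 and 116 CPM in WT air, and 113, 101 and 184 CPM in KO nicotine, against 155, 94.4 and 107 CPM in KO air. Nicotine and air libraries overlapped in both genotypes, and the log2 fold changes, 0.34 ± 0.30 in WT and 0.16 ± 0.30 in KO, had wide intervals (-0.32 to 1.01 in WT). Leaving out 1 library gave 0.20 (WT nicotine 6) to 0.69 (WT air 8) in WT, and -0.15 (KO nicotine 5) to 0.39 (KO air 1) in KO. Loxl1, which keeps elastic fibres renewed in adult mice, lay between 252 and 473 CPM, with -0.07 ± 0.19 in WT and -0.11 ± 0.19 in KO. Over the 10 genes, 0 passed the edgeR threshold for nicotine in WT, where 0.0205% of all genes tested did (3 genes), and 0 passed in KO, where 0 of all genes did. At an unadjusted p under 0.05 the count was 1 of 10 in WT (Fbln2), where 9.84% of all genes passed, and 0 of 10 in KO, where 4.58% passed. DESeq2 called 0 of the 10 here and in every other comparison made. Values were above 0 for 4 genes and below 0 for 6 in WT (median -0.07, against -0.0047 over all genes tested), and above 0 for 3 and below 0 for 7 in KO (median -0.14, against 0.01).

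**Figure D2:**
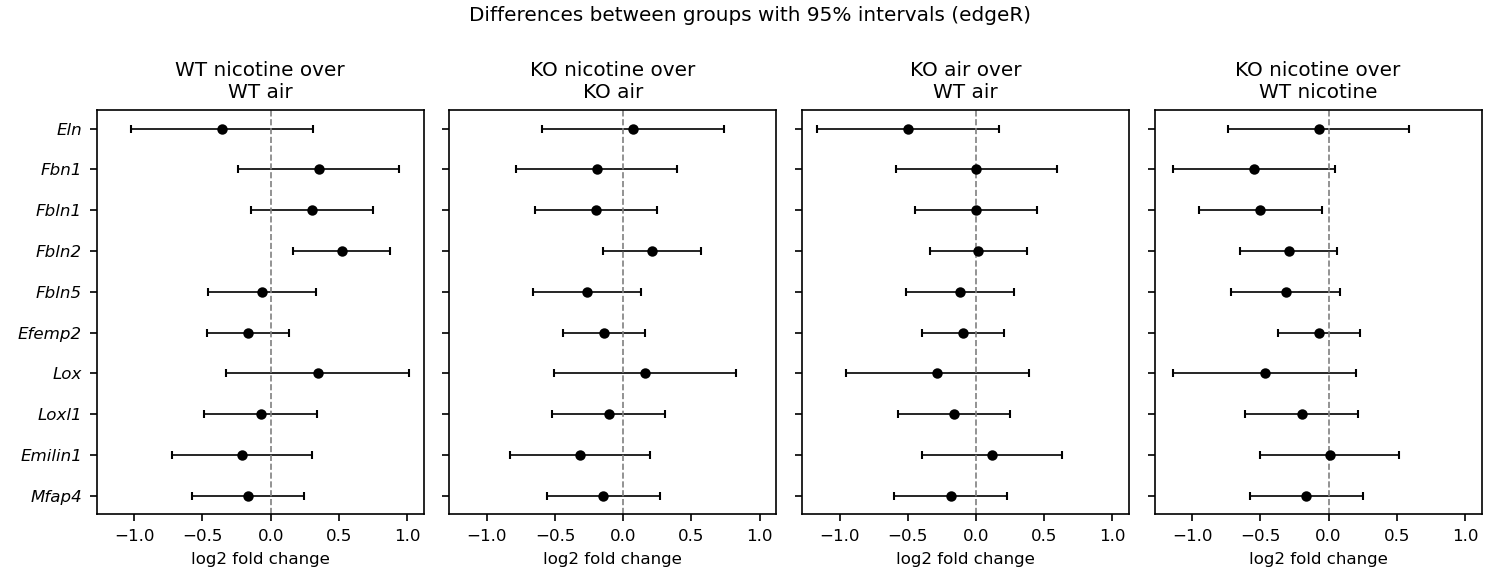
Log2 fold changes (x axis) of the 10 genes (rows), in panels for nicotine against air in WT and in KO and for KO against WT in air and in nicotine. Points are edgeR estimates, bars 95% intervals and the dashed line no change. The bars that do not cross the line are Fbln2 for nicotine in WT (0.16 to 0.88) and Fbln1 for KO against WT in nicotine (-0.95 to -0.05).

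The comparison of genotypes asked how the 10 genes stood in KO against WT aortas under the same exposure. In nicotine, 9 of the 10 genes were lower in KO by their estimate, with a median log2 fold change of -0.24 against 0.01 over all genes tested. The single member at an unadjusted p under 0.05 was Fbln1. It had 168, 107 and 142 CPM in KO nicotine, against 272, 154 and 166 CPM in WT nicotine, and these libraries overlapped. The log2 fold change was -0.50 ± 0.21 (unadjusted p = 0.0317, edgeR adjusted p = 0.541), and it was -0.21 without WT nicotine 6. Fbn1 stood at -0.55 ± 0.27, Lox at -0.47 ± 0.30, Fbln5 at -0.32 ± 0.18 and Fbln2 at -0.29 ± 0.17. Without KO nicotine 5 these were larger in size for Fbn1 (-0.92), Lox (-0.79) and Fbln5 (-0.50). They were smaller for Fbn1 without WT nicotine 6 (-0.31) or KO nicotine 3 (-0.34), for Lox without KO nicotine 4 (-0.31), and for Fbln2 without WT nicotine 6 (-0.16) or KO nicotine 4 (-0.17). Of the 10 genes 0 passed the edgeR threshold, where 0.00684% of all genes did (1 gene), and 1 of 10 was at an unadjusted p under 0.05, where 8.34% of all genes were. Fibroblast markers moved the same way, with 12 of 12 below 0 (median -0.31) and sums of 7005 to 8409 CPM in KO nicotine and 8732 to 10451 CPM in WT nicotine, none of them at 0. Macrophage markers were below 0 for 10 of 10 (median -0.35), with sums of 317 to 607 CPM in KO nicotine and 444 to 627 CPM in WT nicotine. Markers of tissue outside the aortic wall were above 0: 6 of 6 hepatocyte markers (median 3.40, all 6 at an unadjusted p under 0.05), 9 of 9 tested skeletal muscle markers (median 1.29) and 7 of 7 mesothelial markers (median 0.78). KO nicotine 3 held the highest hepatocyte sum, 2188 CPM, in a group that ran from 47.0 CPM, against 19.6 to 121 CPM in WT nicotine. It also held the highest skeletal muscle sum, 222 CPM, in a group that ran from 9.23 CPM, against 10.8 to 48.9 CPM in WT nicotine. Mesothelial sums were 5.75 to 60.3 CPM in KO nicotine and 10.2 to 12.2 CPM in WT nicotine. Of the skeletal muscle list 1 of 10 genes was at 0 in all libraries. The part of these cells in the values of the 10 genes was not tested.

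In air, Eln had the largest log2 fold change in size among the 10. All 3 KO air libraries (669.8 to 825 CPM) lay below all 3 WT air libraries (827 to 1278 CPM), narrowly at the nearest pair, and 6.06% of all genes tested were ordered in this way. The mean was 729 ± 83.5 CPM in KO air and 1031 ± 229 CPM in WT air (SD, n = 3 each), the log2 fold change -0.50 ± 0.31 (95% interval -1.17 to 0.17) and the edgeR adjusted p 0.995. Without WT air 9, the highest Eln library of all, it was -0.32. Contractile markers were below 0 for 12 of 12 in the same comparison (median -0.13), and adipocyte markers above 0 for 11 of 12 (median 0.24). Mesothelial markers were above 0 for 7 of 7 (median 2.82, 5 at an unadjusted p under 0.05), with sums of 8.97 to 79.3 CPM in KO air and 2.98 to 7.58 CPM in WT air. Hepatocyte markers were above 0 for 6 of 6 (median 1.82), with sums of 80.0 to 425 CPM in KO air and 22.3 to 114 CPM in WT air. Their part in the Eln value was not tested. The other 9 genes lay between -0.28 (Lox, 0.05 without WT air 8) and 0.12 (Emilin1), and 0 of 10 passed the threshold or reached an unadjusted p under 0.05, where 0 and 4.36% of all genes did. Averaged over exposures, KO against WT was below 0 for 9 of 10 genes (median -0.20, against 0.01 over all genes), and 0 passed at either level, where 0 and 8.41% of all genes did. Emilin1 was the exception, at 0.06 ± 0.17, and was at -0.11 without KO nicotine 5.

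Whether the nicotine values differed between the genotypes was tested directly. For the 10 genes this interaction ran from -0.55 ± 0.39 for Fbn1 to 0.43 ± 0.43 for Eln. Without KO nicotine 5 the value of Eln was 0.01 and that of Fbn1 -0.92, without KO nicotine 4 that of Eln was 0.72, and without WT nicotine 6 that of Fbn1 was -0.31. The interaction was below 0 for 7 of the 10, with 0 past the edgeR threshold or at an unadjusted p under 0.05, where 0 and 4.43% of all genes were. The median standard error over all genes tested was 0.22 between pairs of groups and 0.31 for the interaction. No difference between the genotypes in the response to nicotine was detectable at this number of libraries, which does not show that the responses were alike.

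The tables that the authors deposited for nicotine against air hold the same 10 genes. In the authors' deposited table for WT, Fbln2 had a log2 fold change of 0.52 ± 0.20 (SE) with an adjusted p of 0.284, and Eln -0.36 ± 0.23. In the authors' deposited table for KO, all 10 genes had an adjusted p of 0.997. None of the 10 had an adjusted p under 0.05 in either of the authors' deposited tables, which list 123 such genes for WT and 7 for KO.

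Libraries of 1 group differed widely, and for several genes at once. KO nicotine 4 held the lowest value of all 12 libraries for 6 of the 10 genes and was below the 12-library mean for all 10, with a median deviation of -0.42 on the log2 scale. KO air 2 was below the mean for all 10 as well. WT air 9 held the highest value for 5 genes and WT nicotine 6 for 4, while KO nicotine 5, in the same group as library 4, was above the mean for 9. The highest library over the lowest gave a ratio of 3.08 for Eln, 2.74 for Fbn1, 2.54 for Fbln1 and 2.35 for Lox, and of 1.55 for Efemp2.

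For some of the 10 genes these differences went along with cell type markers, while for Fbn1 and Lox no such relation passed the threshold. The markers of 3 cell types were each taken as a mean log2 CPM over 12 marker genes. Each such score was set against each of the 10 members over the 12 libraries (30 relations, permutation tests with 100000 resamples, Benjamini-Hochberg adjustment over the 30). By Pearson's r, 13 relations passed an adjusted p of 0.05, and by Spearman's rho 9 did. The same was not computed for genes outside the 10, so no share over all genes stands beside these counts. They do not set the 10 apart from other genes. Of the 13, 8 kept an unadjusted p under 0.05 without the 2 libraries farthest from the score's median. Without WT air 9 the count was 8, and it was also 8 without KO nicotine 4.

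Efemp2, Mfap4, Fbln5 and Emilin1 were high where contractile smooth muscle genes were high. For Efemp2, r was 0.95 (permutation adjusted p = 0.000300) and rho 0.92 (permutation adjusted p = 0.00210), and r stayed at 0.90 without WT air 9 and KO nicotine 4. For Mfap4, r was 0.87 (permutation adjusted p = 0.00187), rho 0.85 (permutation adjusted p = 0.00800) and r without the 2 libraries 0.77. Emilin1 had an r of 0.76 (permutation adjusted p = 0.0126), a rho of 0.73 (permutation adjusted p = 0.0318) and 0.71 without them. Fbln5 (r = 0.81, permutation adjusted p = 0.00703; rho = 0.76, permutation adjusted p = 0.0314) and Loxl1 (r = 0.73, permutation adjusted p = 0.0170; rho = 0.69, permutation adjusted p = 0.0498) rested in part on those libraries, with r of 0.62 and 0.41 without them and unadjusted permutation p of 0.0582 and 0.233. With group means subtracted, r was 0.96 for Efemp2, 0.90 for Mfap4, 0.84 for Fbln5, 0.80 for Loxl1 and 0.77 for Emilin1. These r are given as a description, because permuting such values over the libraries does not allow for the group means removed.

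Eln did not follow the contractile score as closely. Its r was 0.59 (permutation adjusted p = 0.0767) and its rho 0.50 (permutation adjusted p = 0.195), and without WT air 9 and KO nicotine 4 the r was 0.07. The relation of Eln therefore rested on those 2 libraries. With the contractile score Lox had an r of 0.05 (rho = 0.10) and Fbn1 of 0.36 (rho = 0.22). With the fibroblast score r was 0.62 for Fbn1 (permutation adjusted p = 0.0619) and 0.47 for Lox (permutation adjusted p = 0.208). Without KO nicotine 4 and WT nicotine 6 these were 0.22 and 0.05. Neither gene had a relation past the threshold with any of the 3 scores.

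Fbln2 and Fbln1 went with the fibroblast markers instead. For Fbln2, r was 0.89 (permutation adjusted p = 0.00140), rho 0.80 (permutation adjusted p = 0.0184), and r was 0.79 without KO nicotine 4 and WT nicotine 6. For Fbln1, r was 0.85 (permutation adjusted p = 0.00366) and rho 0.75 (permutation adjusted p = 0.0314), with 0.58 and an unadjusted permutation p of 0.0773 without those libraries. With group means subtracted, the r of Fbln2 was 0.91 and that of Fbln1 0.87. After that step Loxl1 had 0.84 and Eln 0.71 with the fibroblast score, against 0.62 and 0.37 before it. These too are given as a description. With the contractile score Fbln2 had an r of -0.21 and Fbln1 of 0.20, neither past the threshold.

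**Figure D3:**
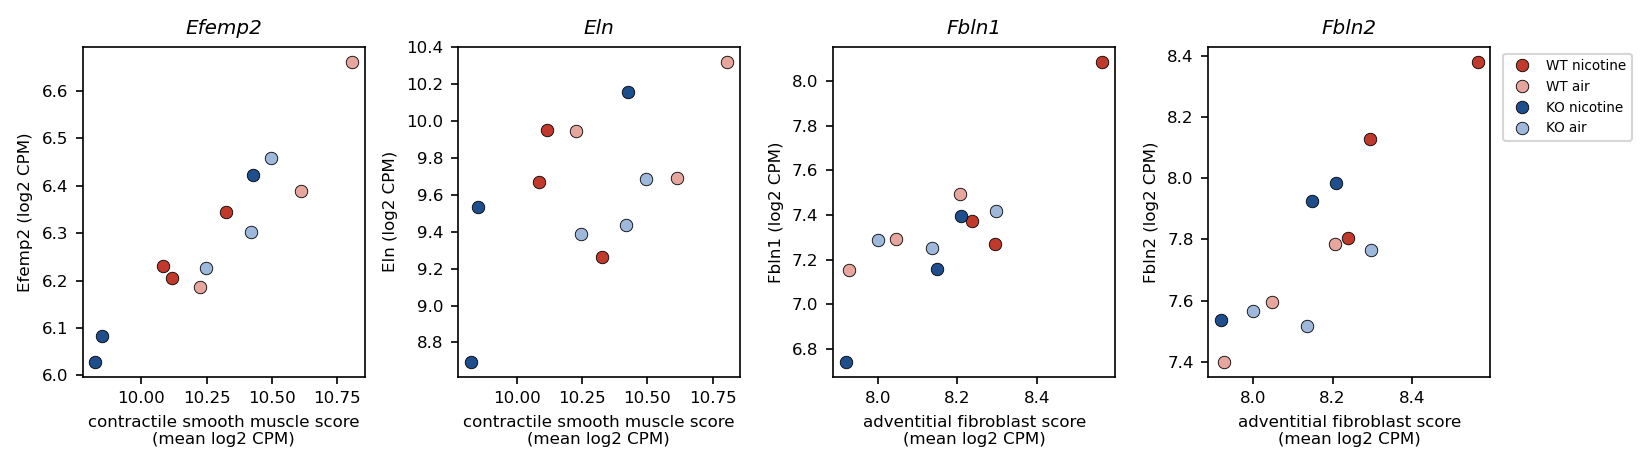
Log2 CPM (y axis) of members against the mean log2 CPM of a marker list (x axis), 1 point a library, coloured by group. Efemp2 climbs with the contractile score (r = 0.95), Fbln1 and Fbln2 with the fibroblast score (r = 0.85 and 0.89), and Eln has an r of 0.59 with the contractile score that rests on the libraries at both ends.

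With adipocyte markers, 6 members ran the other way: Efemp2 (r = -0.92, rho = -0.86), Mfap4 (-0.82, -0.74), Loxl1 (-0.79, -0.63), Fbln5 (-0.76, -0.66), Emilin1 (-0.69, -0.59) and Eln (-0.67, -0.45). Their permutation adjusted p by r ran from 0.000900 (Efemp2) to 0.0426 (Eln); by rho Efemp2 and Mfap4 passed (permutation adjusted p = 0.00800 and 0.0314) and the other 4 did not. Without WT air 9 and 10, the r of Eln was -0.56 and that of Fbln5 -0.62 (unadjusted permutation p = 0.0955 and 0.0569). The adipocyte and contractile scores themselves ran opposite to each other across the libraries (r = -0.91), so their relations to the members cannot be told apart. Contractile and fibroblast scores had an r of 0.05.

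**Figure D4:**
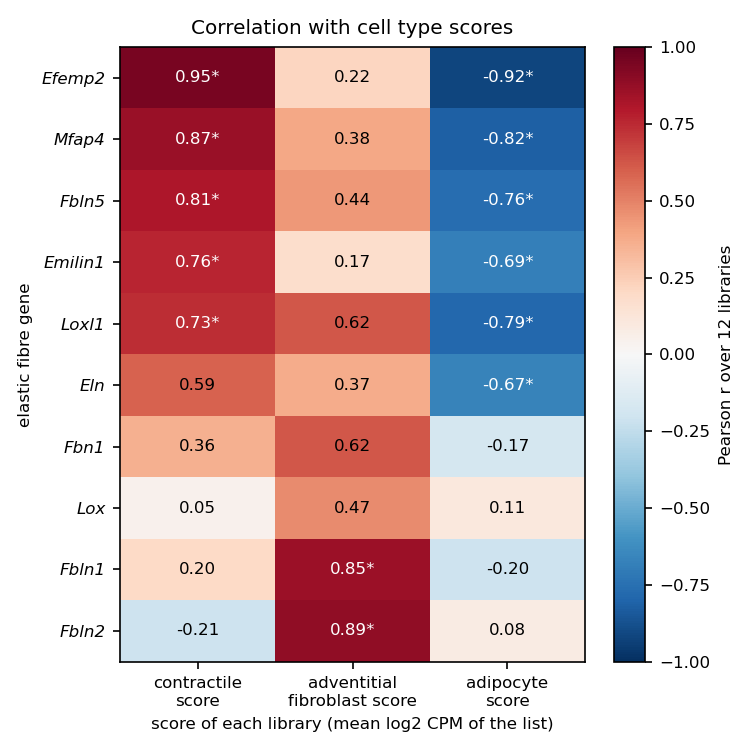
Pearson's r over 12 libraries between each of the 10 genes (rows) and the contractile smooth muscle, fibroblast and adipocyte scores (columns), as colour and number. An asterisk marks a permutation adjusted p under 0.05. Efemp2, Mfap4, Fbln5, Emilin1 and Loxl1 are positive with the contractile score (0.73 to 0.95) and negative with the adipocyte score, and Fbln2 and Fbln1 are positive with the fibroblast score (0.89 and 0.85).

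The marker lists also moved with exposure. Contractile markers were below 0 for 11 of 12 genes in WT nicotine against WT air (median log2 fold change -0.44, sums of 32594 to 37396 CPM in WT nicotine and 35670 to 53488 CPM in WT air) and for 11 of 12 in KO nicotine against KO air (median -0.34, sums of 26376 to 43215 CPM in KO nicotine and 36765 to 44573 CPM in KO air). Adipocyte markers were above 0 for 11 of 12 in WT (median 0.76) and 12 of 12 in KO (median 0.62). Skeletal muscle markers were above 0 for 8 of 9 in WT (median 2.29) and 9 of 9 in KO (median 2.73). In KO 8 of them were at an unadjusted p under 0.05, where 4.58% of all genes were. Their sums were 10.8 to 48.9 CPM in WT nicotine and 9.23 to 14.3 CPM in WT air. They were 222, 41.3 and 9.23 CPM in KO nicotine 3, 4 and 5, and 9.58 to 15.4 CPM in KO air. Hepatocyte markers were above 0 for 2 of 6 in WT (median -0.11) and 6 of 6 in KO (median 1.44). Adipocyte sums were 5908 to 7368 CPM in WT nicotine and 1992 to 6651 CPM in WT air, and 3777 to 10424 CPM in KO nicotine and 3678 to 6609 CPM in KO air. With the adipocyte score in the fit the nicotine value of Eln in WT was 0.07, and with the contractile score 0.02, against -0.36 without either. The settings other than leaving out a library include these fits with a score, which take the nicotine value at an equal score. Over those settings, the other members below 0 in WT also reached values above 0. The highest were 0.32 for Loxl1, 0.30 for Fbln5, 0.23 for Mfap4, 0.21 for Emilin1 and 0.10 for Efemp2. The 4 members above 0 stayed above 0 there, so the split of 4 and 6 in WT depends on the setting. What share of the nicotine values the cells of these lists account for was not tested.

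Among the members themselves, the closest pairs over the 12 libraries were Loxl1 and Mfap4 (r = 0.88), Fbln5 and Efemp2 (0.87) and Efemp2 and Mfap4 (0.86), and Fbln5 and Mfap4 (0.85) came next. Fbn1 and Lox, with no relation past the threshold to any of the 3 scores, had 0.79. Fbln1 and Fbln2 had 0.69, and 0.84 with group means subtracted. Fbln2 had 0.00 with Efemp2 and 0.22 with Fbln5, and with group means subtracted 0.42 and 0.48. Fbln1 had 0.26 with Efemp2 and 0.35 with Fbln5, and 0.25 and 0.14 with group means subtracted. These correlations share libraries and depth and are given as a description.

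By the same measure over 12 libraries, the genes most like a member were looked for among 10440 genes with at least 5 CPM on average. For Fbn1 they were Nos1ap (r = 0.95), the fibrillar collagen genes Col3a1 (0.94) and Col1a1 (0.90), Jund (0.91) and Itga11 (0.88), a collagen-binding integrin. For Fbln1 they were Ifitm3 (0.97), Pi16 (0.92), Pcolce (0.90), which helps to cut procollagen, Rps12 (0.88) and Csf3r (0.88). For Lox they were Mgat1 (0.91), an enzyme of N-glycan branching, Cep170 (0.90), Frmd6 (0.90), Tmem263 (0.88) and Slc7a1 (0.87), a transporter of cationic amino acids including lysine. For Eln they were Nhsl2 (0.88), Snd1 (0.86), Parp8 (0.85), Impa1 (0.84) and Creb3l1 (0.84), a transcription factor of the secretory pathway. The genes that ran most opposite to Eln were Stard7 (-0.86), Pi4ka (-0.85), Macrod1 (-0.84), Stk38 (-0.84) and Acat2 (-0.83). Col1a1 and Pi16 are also in the fibroblast marker list.

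The wider pathway was read from 3 further lists, and 0 of their genes passed the edgeR threshold in any comparison. Of 20 other microfibril and elastic fibre genes, 19 were tested (Fbn2, with at most 10 counts in a library, was not). For nicotine in WT 7 of the 19 were above 0 and 12 below, with 4 of 19 at an unadjusted p under 0.05 (2 in each direction), where 9.84% of all genes were. For nicotine in KO the split was also 7 and 12. For KO averaged over exposures 4 were above 0 and 15 below, where 52.0% and 48.0% of all genes were. Mfap5, a microfibril component, had 78.0, 64.7 and 96.0 CPM in KO nicotine, against 94.8, 111 and 93.2 CPM in WT nicotine, and 63.6, 72.0 and 63.6 CPM in KO air, against 86.6, 99.9 and 89.2 CPM in WT air. Its log2 fold change for KO averaged over exposures was -0.40 ± 0.10 (unadjusted p = 0.00134, edgeR adjusted p = 0.273). Emilin2, a relative of Emilin1, had 63.3, 48.7 and 39.9 CPM in WT nicotine and 31.0, 39.3 and 30.7 CPM in WT air. In KO nicotine it had 60.4, 44.5 and 30.8 CPM, against 35.2, 32.4 and 34.3 CPM in KO air, with overlap. The log2 fold change of Emilin2 for nicotine averaged over genotypes was 0.50 ± 0.16 (unadjusted p = 0.00691, edgeR adjusted p = 0.336).

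Loxl2, a lysyl oxidase relative that acts on collagens, had 19.8, 28.9 and 32.3 CPM in KO nicotine and 54.1, 41.2 and 46.8 CPM in WT nicotine, without overlap, as 5.59% of all genes were ordered. Its log2 fold change there was -0.81 ± 0.19 (unadjusted p = 0.00102, edgeR adjusted p = 0.305), against 0.03 ± 0.19 for KO against WT in air. The others named by the rule were Adamts6 (-0.42 ± 0.20) and Adamtsl4 (0.15 ± 0.09) for nicotine and Loxl4 (0.39 ± 0.23) and Ltbp4 (-0.15 ± 0.10) for KO, both averages. Efemp1 (fibulin-3) is outside the rule and was picked out after its values were seen. It had 63.5, 60.9 and 53.5 CPM in WT nicotine, against 42.1, 37.6 and 39.1 CPM in WT air, and 46.4, 43.4 and 36.9 CPM in KO nicotine, against 52.3, 42.5 and 64.0 CPM in KO air. The nicotine value was 0.58 ± 0.15 in WT and -0.33 ± 0.15 in KO, a difference of -0.91 ± 0.21 (unadjusted p = 0.000718, edgeR adjusted p = 0.922).

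Of 8 genes that process lysyl oxidases or load them with copper, 7 were tested (Tll2 was not), 5 above 0 and 2 below for nicotine in WT (median 0.18) and 1 above and 6 below for nicotine in KO (median -0.10). Atp7a, the copper pump that supplies lysyl oxidase, had 44.2, 39.9 and 45.6 CPM in WT nicotine and 38.2, 34.8 and 29.2 CPM in WT air, without overlap, an order that 7.13% of all genes had (log2 0.34 ± 0.13, unadjusted p = 0.0177, edgeR adjusted p = 0.404). Averaged over genotypes its nicotine value was 0.22 ± 0.09 (unadjusted p = 0.0268, edgeR adjusted p = 0.404). Averaged over exposures its value for KO against WT was -0.25 ± 0.09 (unadjusted p = 0.0141, edgeR adjusted p = 0.472). Tll1, a relative of the protease that activates prolysyl oxidase, was scarce, at 6.00, 2.68 and 1.80 CPM in WT nicotine and 1.22, 0.330 and 1.13 CPM in WT air (log2 1.95 ± 0.62, unadjusted p = 0.00781, edgeR adjusted p = 0.346). In KO nicotine Tll1 had 2.29, 3.15 and 0.809 CPM, against 2.64, 1.37 and 2.23 CPM in KO air (log2 -0.01 ± 0.59). Bmp1, the main such protease, had -0.13 ± 0.10 for nicotine averaged over genotypes, and Atox1, a copper chaperone, -0.13 ± 0.12. Of 14 elastin-degrading proteases and inhibitors, 12 were tested (Elane and Prtn3, neutrophil proteases, were not), 9 above 0 and 3 below for nicotine in WT (median 0.26) and 4 above and 8 below for nicotine in KO (median -0.13). Averaged over genotypes, nicotine gave 0.40 ± 0.26 for Timp1 and 0.45 ± 0.30 for Timp4, both inhibitors of matrix metalloproteinases, 0.18 ± 0.13 for Mmp2, which cleaves elastin, and 0.34 ± 0.26 for Ctss, an elastin-cleaving cathepsin. KO averaged over exposures gave -0.68 ± 0.36 for Mmp9, -0.15 ± 0.09 for Cst3, -0.18 ± 0.11 for Timp3 and -0.11 ± 0.09 for Ctsl.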

How the data were processed

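Thoracic aortas were cleaned of fat and frozen, and SMART-Seq v4 libraries were made from their RNA, per the labels' protocols. The authors deposited raw counts per gene symbol, made with HTSeq on mouse build mm9 per the submitters' processing notes. Neither the aligner nor the annotation is given in the sources used here. The authors also deposited, for each genotype, a table of nicotine against air with mean normalised counts as a signal, log2 fold changes, a test score and p-values, per the file headers.

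Counts were filtered with filterByExpr, scaled by TMM and fitted with edgeR 4.0.16 (robust quasi-likelihood, 4 group means, 8 residual degrees of freedom, R 4.3.3). P-values were adjusted by Benjamini-Hochberg over all 14621 genes tested and called under 0.05. SE is the size of the log2 fold change divided by the root of F. CPM are TMM-scaled, and log2 CPM used a prior count of 2. The fit was tested on simulated counts. Exon lengths are unions of GENCODE M21 basic exons, and since the counts rest on mm9, no gene coordinates from them are printed. Promoter windows are RefSeq's (GRCm38.p6).

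The members and the lists were chosen with earlier results of these data known. The lists were 3 of the pathway and markers of contractile smooth muscle, fibroblasts, adipocytes, brown adipocytes, macrophages, skeletal muscle, mesothelium, hepatocytes, endothelium and Schwann cells. Named pathway genes are, per list, the 4 with the smallest unadjusted p for nicotine and for KO, each averaged. The labels do not state that libraries are separate mice, so p-values measure only how libraries vary, which may be technical. Libraries of a group differed by more than counting noise (chi-square per degree of freedom 8.79 to 74.8). Alternatives were DESeq2 1.42.0, its size factors, no filter, only the groups compared, an adipocyte or contractile covariate and leaving out each library. Python 3.11.15, numpy 2.4.6, pandas 2.3.3, scipy 1.17.1 and matplotlib 3.10.9 were used.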

Additional observations from a re-analysis of the deposited data

How the results depend on the processing

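The count of members past the threshold was 0 in all 7 comparisons and under every alternative run. Counts over all genes moved. With DESeq2, 100 genes passed for nicotine in WT (3 by edgeR), 4 for the interaction (0), 12 for KO against WT in air (0), 77 for KO against WT in nicotine (1), 92 for nicotine averaged over genotypes (0) and 115 for KO averaged over exposures (0). With DESeq2's size factors these were 7 for nicotine in WT and 6 for KO against WT in nicotine. Without the filter on low counts they were 21 for nicotine in WT, 1 for the interaction, 7 for KO against WT in nicotine, 6 for averaged nicotine and 12 for averaged KO. With only the groups compared they were 0 for nicotine in WT and 2 for KO against WT in air. With the adipocyte score in the fit they were 0 for nicotine in WT, 9 for KO against WT in nicotine and 8 for averaged KO, and with the contractile score 0, 5 and 4. The cause was not tested. Leaving out 1 library gave 0 to 34 genes for nicotine in WT (34 without WT air 8), 0 to 1 for the interaction, 0 to 4 for KO against WT in nicotine, 0 to 38 for averaged nicotine (38 without WT air 8), 0 to 1 for averaged KO and 8 to 15 relations of members to cell type scores. Member values that changed sign, 55 of 600 when a library was left out and 46 of 390 under other settings, were never past the threshold, and none was over 0.36 in size in the edgeR fit. For Fbln2, nicotine in WT ran from 0.39 to 0.73. No paired analysis was possible because the groups share no library numbers.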
